A study of Mus musculus with 12 samples.

Results

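The transcripts described here code for the machinery by which fat cells release stored fat: lipases and their regulators, proteins that coat the lipid droplet, and parts of the hormone signal that starts lipolysis. They were taken by gene symbol, as Pnpla2, Lipe, Mgll, Abhd5, G0s2, Plin1, Plin4, Cidec, Adrb3 and Pde3b. Of these 10 listed genes, 9 had a probe set named in the annotation used here, and each had 1, out of 23185 genes tested. Adrb3, the beta-3 adrenergic receptor, was not analysed here. The values come from arrays of abdominal fat of 12 mice (strain background BKS.Cg-Dock7m +/+ Leprdb/J, aged 12 weeks). The Leprdb allele disrupts the leptin receptor, and the labels do not state whether the animals were homozygous. Every animal received adenovirus coding for short hairpin RNA (shRNA), 4e9 plaque-forming units in all, and tissue was taken 1 week later. The control group received 4e9 units of control shRNA virus. The LCN13 group received 2e9 units of LCN13 shRNA virus and 2e9 of control virus. The TSC22D4 group received 2e9 units of TSC22D4 shRNA virus and 2e9 of control virus. The combined group received 2e9 units of LCN13 and 2e9 of TSC22D4 shRNA virus, without control virus. In a difference from control, an shRNA and a smaller amount of control virus thus cannot be told apart. The same holds for the combined group against each single group, and for the effect of one shRNA averaged over the other. The TSC22D4 and LCN13 groups received the same amount of control virus. The control animals carry the Leprdb strain background too, although their genotype entry reads WT. Each group held 7 animals, of which 3 that the submitters called representative were put on arrays. The tissues that the virus reached are not named in the labels. The design asks whether silencing TSC22D4, a regulator of transcription, or LCN13, a secreted lipocalin, is accompanied by other RNA levels in fat, and whether one depends on the other.

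In fat cells, noradrenaline acting on beta-adrenergic receptors raises cyclic AMP, which activates protein kinase A. The kinase phosphorylates perilipin 1 on the droplet surface, which frees ABHD5 to activate ATGL, and phosphorylates hormone-sensitive lipase. Triglyceride is then cut in sequence by ATGL, hormone-sensitive lipase and monoglyceride lipase, and insulin opposes the process in part through a phosphodiesterase that breaks down cyclic AMP. Much of this control acts on proteins, by phosphorylation and binding, and is not seen in RNA levels.

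The 9 transcripts were measured at nearly the same level in all 4 groups, and none passed the test in any comparison. Pnpla2, which codes for ATGL, was slightly lower in each of the shRNA groups than in control. Plin4, which codes for a droplet coat protein, was higher, by the widest margin in the LCN13 group. No difference of a member between any pair of groups was larger than 0.21 log2. From mouse to mouse within the groups, most of the 9 transcripts were high or low together, and so were other adipocyte transcripts.

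Values are log2 expression after robust multi-array averaging (RMA), and ran from 5.62 to 14.4 with a median of 6.31. A difference of 1 is a doubling, and the level of one probe set is not compared with that of another. Tests are from limma, a linear model fitted to all 23185 genes over the 12 arrays, with a Benjamini-Hochberg adjusted p under 0.05 as the threshold. The transcripts of the targeted genes did not differ detectably in fat. Tsc22d4 differed by -0.0074 between the TSC22D4 group and control (limma adjusted p = 0.989) and by -0.07 between the combined group and control (adjusted p = 0.888). The lipocalin transcript, listed as Obp2a, lay near the lower end of the arrays and differed by -0.01 between the LCN13 group and control (adjusted p = 0.858). The adipocyte identity of the tissue was borne out by 8 measured markers, Adipoq, Retn, Lep, Fabp4, Pparg, Cd36, Slc2a4 and Lpl, whose mean lay between 12.90 and 13.04 on the arrays of all groups. Of 5 brown fat markers, Ucp1 and Cidea lay between 5.92 and 6.36 and Cox8b, Cox7a1 and Elovl3 between 5.96 and 8.27. All 5 were higher in TSC22D4 than in LCN13 (by up to 1.06) and lower in LCN13 than in control, and none passed. Interferon-stimulated genes set the controls apart: 7 of 9 passed lower in each shRNA group than in control, and the mean of the list lay between 9.56 and 9.89 in control and between 7.20 and 7.66 in the other groups. Macrophage markers had means of 11.0 to 11.4 in control and 10.7 to 11.1 in the other groups, and 1 of 7, Fcgr1, passed lower in each shRNA group. Of the T and NK cell markers 1 of 7, Gzmb, also passed lower in each of those comparisons. None of the markers of endothelium, fibroblasts, mesothelium, liver, muscle, pancreas, B cells or red cells passed against control. In whole tissue, fewer cells of a type and less RNA per cell cannot be told apart.

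Promoter windows of 8 members were found in RefSeq tables of the mouse assembly GRCm38.p6, 11 windows in all, each covering the 250 bases before an annotated start. Those of Pnpla2 and Plin4 are shown because these had the smallest p over the 4 groups. Both windows of Lipe are shown because its transcript varied together with Pnpla2 between mice. The Pnpla2 window lies at chr7:141454938-141455187 on the plus strand, that of Plin4 at chr17:56109783-56110032 on the minus strand, and those of Lipe at chr7:25390113-25390362 and chr7:25395988-25396237 on the minus strand. Sequences run 5′ to 3′ along the gene, and capitals mark a match, on either strand, to one of the motifs searched.
Pnpla2: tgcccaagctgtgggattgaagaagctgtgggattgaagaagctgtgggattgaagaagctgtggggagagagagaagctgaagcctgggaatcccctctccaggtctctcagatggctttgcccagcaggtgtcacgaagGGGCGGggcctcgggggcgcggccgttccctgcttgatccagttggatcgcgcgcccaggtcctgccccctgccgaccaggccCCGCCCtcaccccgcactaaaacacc
Plin4: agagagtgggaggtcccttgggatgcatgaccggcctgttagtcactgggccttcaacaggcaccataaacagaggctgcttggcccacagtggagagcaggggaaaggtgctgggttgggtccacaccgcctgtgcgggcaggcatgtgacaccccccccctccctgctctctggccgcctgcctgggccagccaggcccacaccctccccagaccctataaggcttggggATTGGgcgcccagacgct
Lipe, window at 25390113: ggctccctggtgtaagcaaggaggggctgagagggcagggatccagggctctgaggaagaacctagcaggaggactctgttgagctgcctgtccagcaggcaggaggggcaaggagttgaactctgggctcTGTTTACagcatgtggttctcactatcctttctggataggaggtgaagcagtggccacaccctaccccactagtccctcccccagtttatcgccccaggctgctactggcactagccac
Lipe, window at 25395988: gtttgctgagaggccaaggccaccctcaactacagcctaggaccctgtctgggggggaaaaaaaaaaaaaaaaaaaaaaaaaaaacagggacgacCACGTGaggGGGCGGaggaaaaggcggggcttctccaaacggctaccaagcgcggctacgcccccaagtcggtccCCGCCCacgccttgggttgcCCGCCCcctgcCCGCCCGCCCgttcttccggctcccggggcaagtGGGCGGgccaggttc

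The 9 motifs were searched on both strands, and overlapping matches of 1 motif were counted apart. The GC box GGGCGG occurred in 5 of 11 member windows (of Abhd5, G0s2, Lipe, Mgll and Pnpla2) and in 32.7% of all 32851 windows of the table. In the Pnpla2 window it begins 109 and 26 bases before the start. The CCAAT box, spelled CCAAT, occurred only in the Plin4 window among the members, 18 bases before the start, and in 33.9% of all windows. The forkhead site TGTTTAC and the E-box CACGTG each occurred in 2 of 11 member windows, of Lipe and Mgll, against 3.17% and 6.02% of all windows. The nuclear receptor half-site AGGTCA, found in 14.0% of all windows, occurred in that of Abhd5. No member window held a direct repeat of that half-site spaced by any base, the form bound by PPAR receptors (0.0335% of all windows), the interferon response core, a repeat of TTTC (2.98%), the cyclic AMP response element TGACGTCA (1.55%) or TATAAA (12.4%). A missing match says only that these letters are not in these windows, and a match is not a binding site.

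Pnpla2 encodes ATGL, the lipase that takes the first fatty acid from triglyceride. Its values were 13.05, 12.91 and 12.92 in control, 12.80, 12.83 and 12.75 in LCN13, 12.82, 12.86 and 12.75 in TSC22D4, and 12.86, 12.79 and 12.81 in the combined group. All 9 arrays of the shRNA groups lay below all 3 controls, with the highest of them at 12.86 and the lowest control at 12.91. Over the table, 1.8% of genes had all 9 arrays below all 3 controls and 1.1% had them above. The difference from control was -0.15 in TSC22D4 (SE 0.044, 95% interval -0.25 to -0.053, limma adjusted p = 0.184). It was -0.17 in LCN13 (SE 0.044, interval -0.26 to -0.067, limma adjusted p = 0.133) and -0.14 in the combined group (SE 0.044, interval -0.24 to -0.045, limma adjusted p = 0.213). Thus none passed, and the 3 shRNA groups lay within 0.022 of each other. These comparisons share the 3 control arrays. With all shRNA arrays set against control, a contrast chosen after the values were seen, the difference was -0.15 (SE 0.036, interval -0.23 to -0.073, limma adjusted p = 0.0815), or 0.899 times the control level (interval 0.850 to 0.951). Control replicate 1 had the highest Pnpla2 value, and without it the differences were -0.11, -0.12 and -0.098 in TSC22D4, LCN13 and the combined group. Interferon-stimulated transcripts and 1 of 7 macrophage markers, Fcgr1, passed lower in the same groups, as given above. Their part in the Pnpla2 difference was not tested.

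With the mean of the adipocyte markers added to the model, the SE of the Pnpla2 difference was 0.028 to 0.029 in place of 0.044, and the 3 differences from control passed. They were -0.15 in TSC22D4 (limma adjusted p = 0.0419), -0.19 in LCN13 (adjusted p = 0.0185) and -0.14 in the combined group (adjusted p = 0.0499). In the contrast of all shRNA arrays with control the value was -0.16 (SE 0.023, limma adjusted p = 0.00972). Under the other settings, including each fit that left out 1 array, the differences from control ranged from -0.19 to -0.098 and none passed.

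**Figure D1:**
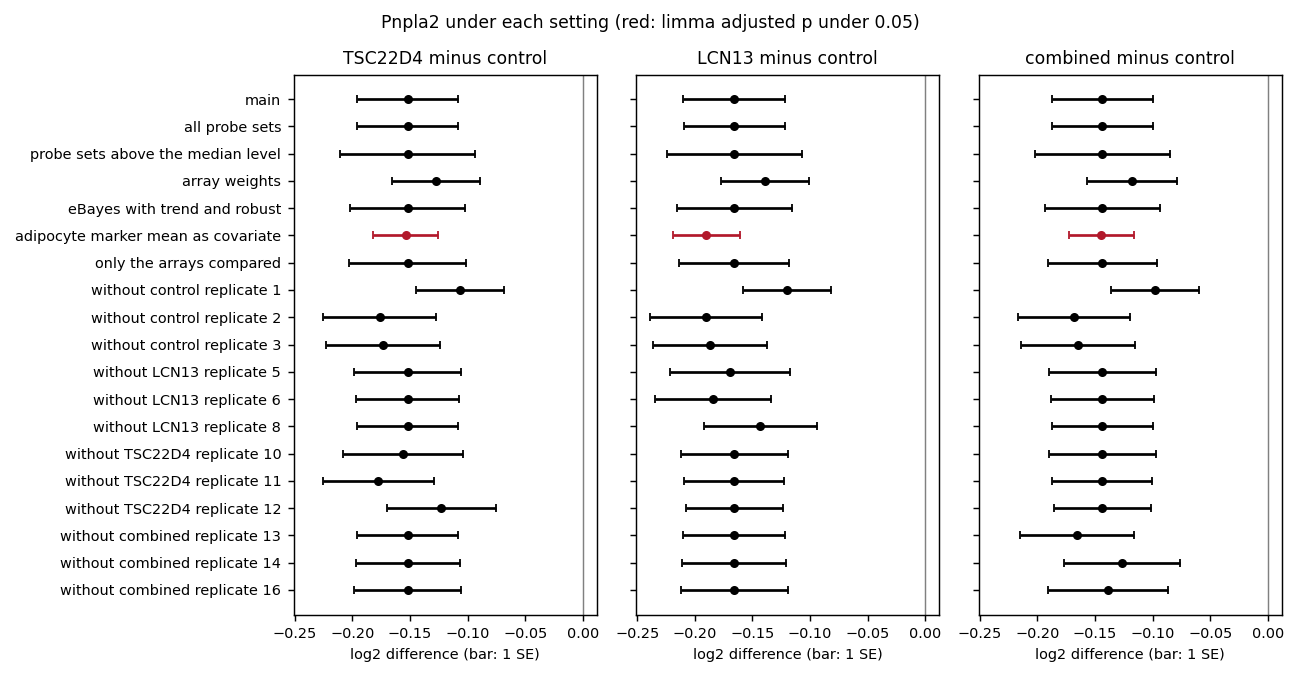
Difference of Pnpla2 from control in each shRNA group (log2, horizontal axis) under each processing setting (rows). Points are the fitted differences and bars 1 SE; red marks a limma adjusted p under 0.05, reached with the adipocyte marker mean as covariate, and all points lie below 0.

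Lipe encodes hormone-sensitive lipase, which acts chiefly on diglyceride. Its values were 13.37, 13.18 and 13.20 in control, 13.34, 13.29 and 13.21 in LCN13, 13.19, 13.27 and 13.06 in TSC22D4, and 13.30, 13.24 and 13.18 in the combined group. The groups overlapped in every pair, with control replicate 1 the highest array and TSC22D4 replicate 12 the lowest. Against control Lipe differed by -0.08 in TSC22D4 (interval -0.22 to 0.071, limma adjusted p = 0.747), 0.03 in LCN13 (adjusted p = 0.917) and -0.0099 in the combined group (adjusted p = 0.993).

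Mgll encodes monoglyceride lipase, which completes the breakdown to glycerol. Its values were 12.39, 12.21 and 12.22 in control, 12.20, 12.20 and 12.26 in LCN13, 12.40, 12.41 and 12.20 in TSC22D4, and 12.38, 12.41 and 12.33 in the combined group. All arrays of the combined group lay above all of the LCN13 group, and the other pairs of groups overlapped. The combined group differed from the LCN13 group by 0.15 (SE 0.063, interval 0.0084 to 0.29, limma adjusted p = 0.439). The TSC22D4 effect averaged over the LCN13 shRNA was 0.11 (interval 0.0058 to 0.21, limma adjusted p = 0.285), so neither passed.

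Abhd5, also called CGI-58, encodes the protein that activates ATGL, and G0s2 encodes a small protein that inhibits it. Abhd5 values were 11.55, 11.54 and 11.31 in control, 11.37, 11.36 and 11.40 in LCN13, 11.46, 11.59 and 11.40 in TSC22D4, and 11.39, 11.36 and 11.46 in the combined group. The control arrays covered nearly the whole range seen, and the one separation was that all TSC22D4 arrays lay above all LCN13 arrays, by 0.11 on the mean (interval -0.043 to 0.26, limma adjusted p = 0.438) and 0.057 without TSC22D4 replicate 11. G0s2 values were 8.97, 8.68 and 8.43 in control, 8.91, 8.77 and 8.86 in LCN13, 8.75, 8.95 and 8.48 in TSC22D4, and 8.71, 8.78 and 8.78 in the combined group. The groups overlapped in every pair. G0s2 spread most among the members, with a within-group SD of 0.184 against a median of 0.0647 over all genes. Its difference from control was 0.16 in LCN13 (interval -0.15 to 0.47, limma adjusted p = 0.725), 0.03 in TSC22D4 (adjusted p = 0.961) and 0.07 in the combined group (adjusted p = 0.962). The LCN13 value was 0.30 without control replicate 1 and 0.027 without control replicate 3.

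Plin1 encodes perilipin 1, which guards the droplet against lipases until it is phosphorylated. Its values were 12.76, 12.60 and 12.64 in control, 12.75, 12.70 and 12.73 in LCN13, 12.65, 12.80 and 12.60 in TSC22D4, and 12.73, 12.73 and 12.65 in the combined group. Control and TSC22D4 arrays spanned the range of the other groups, and group means lay within 0.057 of each other. Plin1 differed from control by 0.02 in TSC22D4 (interval -0.11 to 0.14, limma adjusted p = 0.948), 0.06 in LCN13 (adjusted p = 0.747) and 0.04 in the combined group (adjusted p = 0.935).

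Plin4 encodes perilipin 4, a coat protein known for binding nascent droplets in adipocytes. Its values were 12.46, 12.35 and 12.42 in control, 12.63, 12.53 and 12.69 in LCN13, 12.50, 12.55 and 12.48 in TSC22D4, and 12.62, 12.52 and 12.46 in the combined group. Of the 9 shRNA arrays 8 lay above all controls, and combined replicate 16 and the highest control were both at 12.46 to 2 decimals. Plin4 differed from control by 0.21 in LCN13 (SE 0.052, interval 0.093 to 0.32, limma adjusted p = 0.108). That is 1.16 times the control level (interval 1.07 to 1.25) and was the largest difference between any pair of groups among the members. It was 0.10 in TSC22D4 (interval -0.014 to 0.22, limma adjusted p = 0.504) and 0.12 in the combined group (interval 0.0068 to 0.24, limma adjusted p = 0.414), or 0.079 without combined replicate 13. The LCN13 difference passed with arrays weighted by their fit (0.24, limma adjusted p = 0.0284) and under no other setting tried.

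Cidec encodes a protein of the contact sites between droplets, through which lipid moves to the larger one. Its values were 13.88, 13.90 and 13.80 in control, 13.84, 13.88 and 13.91 in LCN13, 13.95, 13.94 and 13.91 in TSC22D4, and 13.90, 13.89 and 13.90 in the combined group. Cidec varied least, over 0.15 in all 12 arrays, and the TSC22D4 arrays lay above all control and all combined arrays. The difference from control was 0.08 (SE 0.028, interval 0.012 to 0.14, limma adjusted p = 0.316), and those of the LCN13 group, 0.02, and the combined group, 0.04, did not pass either (limma adjusted p = 0.885 and 0.745).

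Pde3b encodes the phosphodiesterase through which insulin lowers cyclic AMP in fat cells. Its values were 11.85, 11.62 and 11.69 in control, 11.68, 11.69 and 11.59 in LCN13, 11.58, 11.70 and 11.51 in TSC22D4, and 11.76, 11.65 and 11.64 in the combined group. The groups overlapped throughout, and the highest value was again control replicate 1. The difference from control was -0.12 in TSC22D4 (interval -0.27 to 0.027, limma adjusted p = 0.546), -0.07 in LCN13 (adjusted p = 0.767) and -0.03 in the combined group (adjusted p = 0.962). Without control replicate 1 these were -0.058, -0.0013 and 0.03.

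**Figure D2:**
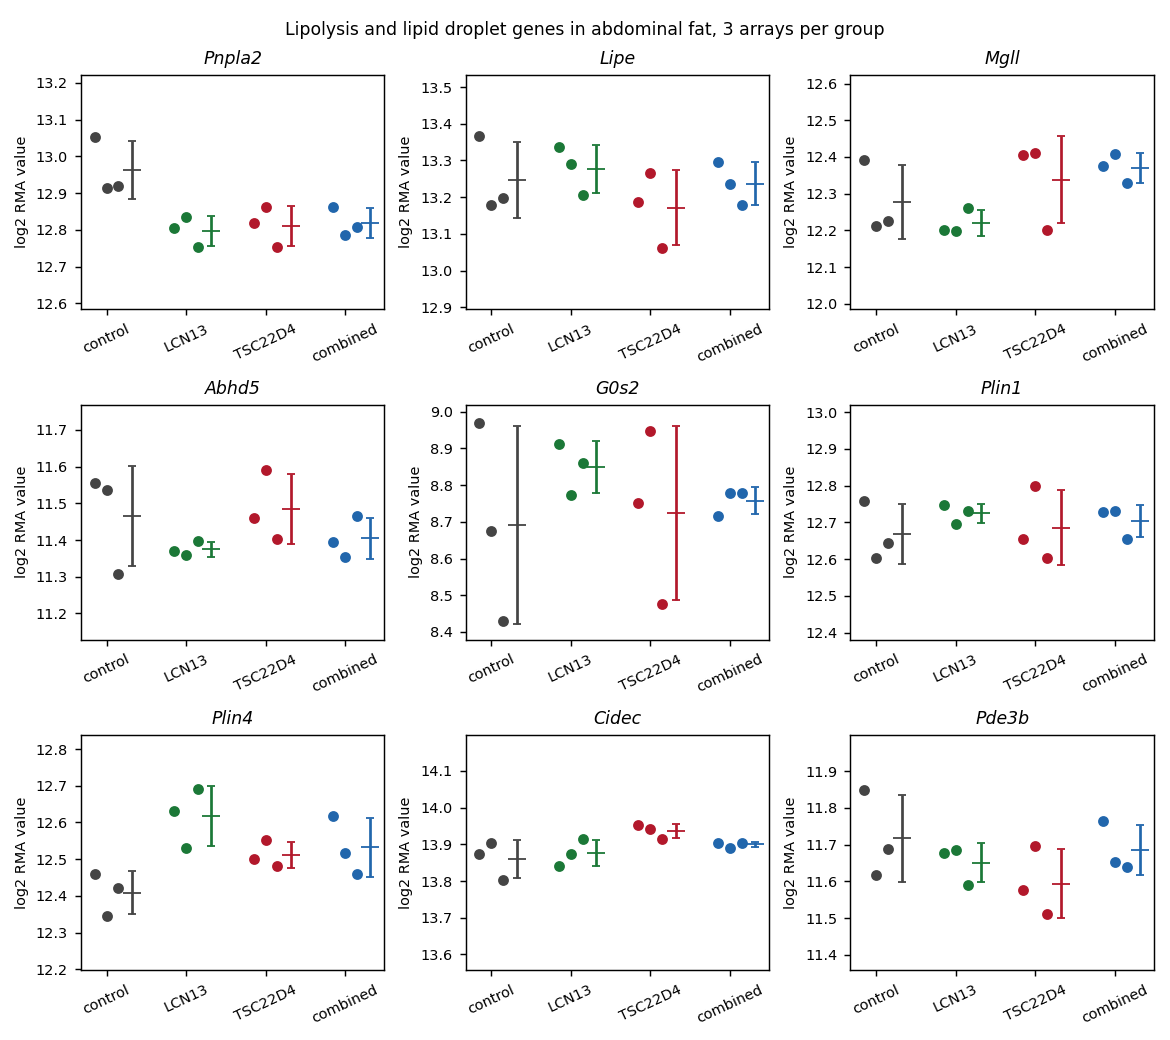
Log2 RMA values (vertical axis) of the 9 transcripts in control, LCN13, TSC22D4 and combined groups, 1 point per array, with the group mean and bars of 1 SD (n = 3); each panel has its own range. Pnpla2 is lower on all 9 shRNA arrays than on the 3 controls, Plin4 is lowest in control, and the groups overlap for most other transcripts.

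Counted over the 9 members, 0 passed in the comparison of TSC22D4 with control, in which 1.17% of all genes passed. The count was 0 of 9 in LCN13 against control (1.44% of all genes), in combined against control (1.34%) and in TSC22D4 against LCN13 (1.03%). It was 0 of 9 also in combined against LCN13 (0.00863%) and in combined against TSC22D4, in which limma called 0 (0%) of 23185 genes and 6.91% had an unadjusted p under 0.05. No member passed for the TSC22D4 effect averaged over LCN13 (1.39%), the LCN13 effect averaged over TSC22D4 (1.08%), their interaction (0.397%), the F test over the 4 groups (1.61%), or all shRNA arrays against control (1.66%). With so few genes called anywhere, 0 of 9 is near the share of all genes. At an unadjusted p under 0.05, 2 of 9 members were found in each comparison with control: Pnpla2 and Cidec in TSC22D4, and Pnpla2 and Plin4 in LCN13 and in the combined group. The shares of all genes at that level were 11.8%, 12.6% and 11.0%. The F test gave limma adjusted p = 0.184 for Pnpla2, 0.209 for Plin4 and 0.42 for Cidec.

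Separation of the arrays gave a like picture. The 3 arrays of each group did not overlap for 3 of 9 members in TSC22D4 against control (Plin4 and Cidec higher, Pnpla2 lower), against 16.6% of all genes. In LCN13 against control they did not overlap for 2 of 9 (Plin4 higher, Pnpla2 lower), against 15.7%, and in combined against control for 1 of 9 (Pnpla2, lower), against 14.9%. In TSC22D4 against LCN13 they did not overlap for 1 of 9 (Abhd5, higher), against 25.2%. The same held for 1 of 9 in combined against LCN13 (Mgll, higher), against 16.5%, and for 1 of 9 in combined against TSC22D4 (Cidec, lower), against 14.5%. The median log2 difference of the 9 members was 0.020 in TSC22D4, 0.016 in LCN13 and 0.037 in the combined group against control, beside -0.0022, 0.0040 and 0.0015 over all genes. Members lay on both sides of 0 in each comparison with control: 6 above and 3 below in TSC22D4, and 5 above and 4 below in LCN13 and in the combined group. The 95% intervals of the members' differences between pairs of groups had a median half-width of 0.14 log2, from 0.063 for Cidec to 0.31 for G0s2.

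**Figure D3:**
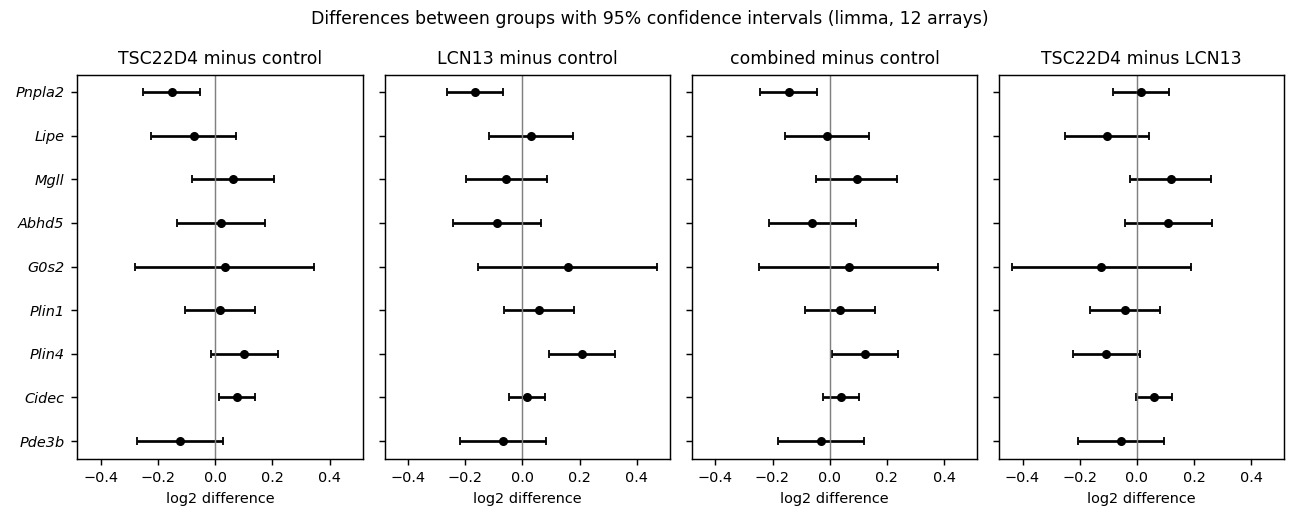
Log2 differences (horizontal axis) of the 9 transcripts (rows) in 4 comparisons, with 95% confidence intervals from limma over 12 arrays. The intervals of Pnpla2 lie below 0 in each comparison with control and that of Plin4 above 0 in LCN13 and combined against control, before adjustment for the 23185 genes tested; none passed after it.

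The interaction compares the TSC22D4 difference in the presence of the LCN13 shRNA with that in its absence. For Pnpla2 it was 0.17 (SE 0.062, interval 0.034 to 0.31, limma adjusted p = 0.570) and for Plin4 -0.19 (SE 0.073, interval -0.35 to -0.024, limma adjusted p = 0.618). The combined group thus had a Pnpla2 level like that of each single group, and not the sum of both differences, but the departure from the sum did not pass. Control, the group set apart for Pnpla2, alone received 4e9 units of control virus. Ifit1 (2.61), Irf7 (1.78), Oas3 (3.41), Usp18 (2.37), Rtp4 (1.48) and Dhx58 (2.18) passed the same interaction, also above 0. The other interferon-stimulated markers did not pass it. The part of control virus or interferon in the Pnpla2 value was not tested. For the other 7 members the interaction lay between -0.13 for G0s2 and 0.16 for Pde3b, and none passed.

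Within groups, the members moved together from mouse to mouse. After the group mean was taken from each array, 34 of 36 pairs of members had a positive correlation over the 12 arrays, with a median Pearson r of 0.58. The closest were Pnpla2 with Pde3b (r = 0.95), Lipe with Pde3b (0.95) and Pnpla2 with Lipe (0.91), so the transcripts of ATGL, hormone-sensitive lipase and the phosphodiesterase were high and low in the same animals. Cidec followed Abhd5 (r = 0.72), G0s2 (0.48) and Mgll (0.37), and had r between -0.064, with Pde3b, and 0.12, with Pnpla2, to the other members. All 9 members were above their group mean in control replicate 1 (by 0.11 on average) and in TSC22D4 replicate 11 (by 0.09). None was above it in TSC22D4 replicate 12 (-0.09 on average) and 1 of 9 in control replicate 3 (-0.07). Without control replicate 1, whose values were deposited with more decimals than those of the other arrays, 30 of 36 pairs remained positive and the median r was 0.43. These values share arrays and their normalization, and are given as a description. Taking out the group means leaves 8 degrees of freedom. No such values were taken for pairs of other genes, so the pattern is not shown to be particular to the members.

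The mean deviation of the members followed that of the 8 adipocyte markers, with r = 0.85 and rho = 0.84 over 12 arrays, and r = 0.74 without the 2 arrays farthest from the median. It ran against that of the 7 macrophage markers, with r = -0.87 and rho = -0.90, and r = -0.68 without 2 arrays. Other lists also moved with it. For pancreas markers, of which all but Cela1 lie near the lower end of the arrays, r was 0.63 (0.56 without 2 arrays). The value of r was 0.60 for skeletal muscle (-0.018 without 2 arrays), 0.50 for red blood cells (0.35) and -0.53 for interferon-stimulated genes (-0.42). It was -0.26 for brown adipocyte, -0.24 for B and plasma cell, -0.12 for fibroblast, -0.065 for endothelial, -0.015 for mesothelial, -0.0065 for liver and 0.12 for T and NK cell markers. By member, r with the adipocyte markers was 0.95 for Lipe, 0.91 for Pde3b, 0.87 for Plin1, 0.83 for Pnpla2, 0.72 for Mgll, 0.67 for G0s2, 0.58 for Plin4, 0.38 for Abhd5 and 0.062 for Cidec. The 2 arrays left out differ by list, so these values are not like for like. For adipocyte markers they were TSC22D4 replicates 11 and 12, which kept control replicate 1. For macrophage markers they were control replicate 1 and TSC22D4 replicate 11, and for skeletal muscle control replicates 1 and 3. The part of the cell makeup of the tissue in how the members moved together was not tested.

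**Figure D4:**
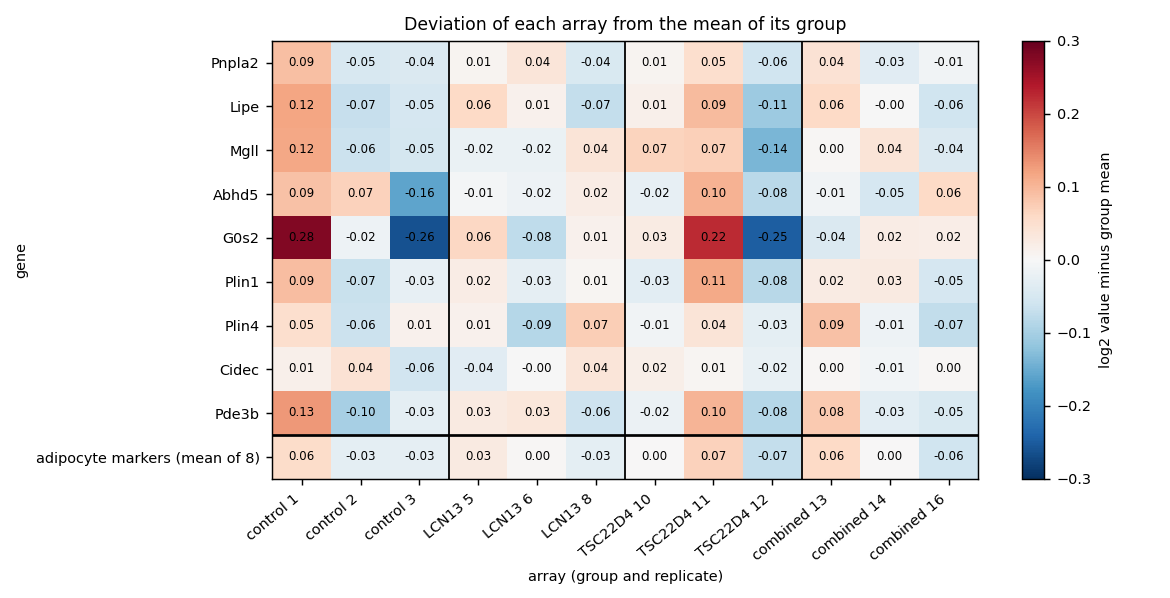
Deviation of each array from the mean of its group (log2, colour and printed value) for the 9 transcripts and the mean of 8 adipocyte markers (rows), by array (columns, group and replicate number). Control replicate 1 and TSC22D4 replicate 11 are above their group mean in all 9 transcripts and TSC22D4 replicate 12 is below it in all 9, as are the adipocyte markers.

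The transcripts outside the members whose values were most like those of Pnpla2 over the 12 arrays were Ap3m2 (Pearson r = 0.94), Vnn3 (0.91) and Enpp4 (0.90). Most like Plin4 were Nsd1 (0.91), Dst (0.90) and Map4k4 (0.89), and most like Cidec were Sec22b (0.96), Col6a2 (0.95) and Acad9 (0.93). They had the highest r among 18260 genes compared, a description over arrays that share their groups.

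Of 54 other genes of lipolysis and the lipid droplet in 5 lists, 50 were measured, and few passed. None passed in any comparison of a single shRNA group with control, where 1.17% to 1.44% of all genes did. With an unadjusted p under 0.05 there were 13 of 50 in TSC22D4, 10 of 50 in LCN13 and 12 of 50 in the combined group, or 26%, 20% and 24%, beside 11.8%, 12.6% and 11.0% of all genes. In TSC22D4 against LCN13, 2 of 50 passed (Prkaca and Plin3), beside 1.03% of all genes. For the TSC22D4 effect averaged over LCN13, 1 of 50 passed (Ces1f), beside 1.39%. Pnpla8 passed in all shRNA arrays against control, where 1.66% of all genes did. The lists hold the beta-adrenergic and cyclic AMP signal (16 of 18 genes measured), antilipolytic receptors and G proteins (9 of 11), other lipid hydrolases (7 of 7), other droplet proteins (16 of 16), and the fatty acid carrier Fabp4 with the glycerol channel Aqp7 (2 of 2).

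In the cyclic AMP signal, Prkaca, the catalytic subunit alpha of protein kinase A, passed higher in TSC22D4 than in LCN13. Its values were 11.67, 11.67 and 11.52 in control, 11.53, 11.54 and 11.53 in LCN13, 11.85, 11.85 and 11.75 in TSC22D4, and 11.74, 11.58 and 11.72 in the combined group. The TSC22D4 arrays lay above all others, and the TSC22D4 to LCN13 difference was 0.28 (SE 0.052, limma adjusted p = 0.0442). The call was lost in 9 of 12 fits without 1 array (adjusted p up to 0.142), and against control the TSC22D4 difference was 0.19 (adjusted p = 0.142). The TSC22D4 effect on Prkaca averaged over the LCN13 shRNA was 0.17 and did not pass in the main fit. It passed under 2 of 17 alternative settings (limma adjusted p 0.0347 and 0.0401). Markers of other cell types also differed between the TSC22D4 and LCN13 groups, where 1 of 6 fibroblast markers, Dpp4, passed lower in TSC22D4 (-0.59, limma adjusted p = 0.0365). All 5 liver markers lay lower on each TSC22D4 array than on each LCN13 array (median difference -0.73), as did 3489 of all 23185 genes. All 7 mesothelial markers had lower means (median -0.49), and none of either list passed. The mesothelial mean was 8.89 and 8.91 on LCN13 replicates 5 and 6. On LCN13 replicate 8 it was 7.80, within the TSC22D4 range of 7.78 to 8.30. The part of these cell types in the Prkaca and Plin3 differences was not tested.

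Among droplet proteins, Plin3, a perilipin found in most tissues, passed higher in TSC22D4 than in LCN13. Its values were 9.19, 9.42 and 9.19 in control, 9.01, 9.00 and 9.10 in LCN13, 9.42, 9.37 and 9.31 in TSC22D4, and 9.30, 9.22 and 9.24 in the combined group. The LCN13 arrays lay below all others, and the difference was 0.33 (SE 0.061, limma adjusted p = 0.0449). It was lost in 8 of 12 fits without 1 array (adjusted p up to 0.158). Cideb, of the same family as Cidec, had the largest value of the droplet proteins in LCN13 against control, 0.55, and did not pass (limma adjusted p = 0.661). Its control arrays ran from 6.05 to 7.76, and the difference was 0.17 without control replicate 1 and 1.02 without control replicate 3.

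Among lipid hydrolases, Ces1d and Ces1f, carboxylesterases that act on triglyceride, had the largest differences, and the sequences of this family are alike, so the 2 probe sets may share signal. Ces1d values were 10.28, 9.54 and 9.99 in control, 10.34, 10.41 and 9.87 in LCN13, 9.07, 9.22 and 8.69 in TSC22D4, and 9.69, 8.27 and 8.85 in the combined group. The TSC22D4 arrays lay below all control and LCN13 arrays. The difference from control was -0.94 in TSC22D4 (SE 0.34, limma adjusted p = 0.302), -0.998 in the combined group (adjusted p = 0.276; -0.66 without combined replicate 14) and 0.27 in LCN13 (adjusted p = 0.822), so none passed. The TSC22D4 effect on Ces1d averaged over the LCN13 shRNA was -1.10 and did not pass in the main fit. It passed under 5 of 17 alternative settings (limma adjusted p from 0.0195 to 0.0495 in these). Ces1f values were 6.73, 6.76 and 6.98 in control, 6.73, 6.80 and 6.52 in LCN13, 6.21, 6.25 and 6.22 in TSC22D4, and 6.63, 6.44 and 6.13 in the combined group. Averaged over the LCN13 shRNA, the TSC22D4 effect on Ces1f was -0.44 (SE 0.086, limma adjusted p = 0.0452), from a mean of 6.75 to 6.31, and passed. The amount of control virus also differs between the sides of such an averaged effect. The call was lost in 9 of 12 fits without 1 array (adjusted p up to 0.121), and the values lie near the lower end of the arrays. In TSC22D4 against control alone the Ces1f difference was -0.60 (limma adjusted p = 0.0582), and it passed under 6 of 18 alternative settings (adjusted p from 0.0156 to 0.0484 in these). Pnpla8, a calcium-independent phospholipase of the ATGL family, passed in the contrast of all shRNA arrays with control. Its values were 9.68, 9.49 and 9.55 in control, 9.71, 9.82 and 9.76 in LCN13, 9.76, 9.76 and 9.87 in TSC22D4, and 9.81, 9.80 and 9.86 in the combined group. All shRNA arrays lay above all controls, by 0.22 on average (SE 0.043, limma adjusted p = 0.0372). The call was lost in 10 of 12 fits without 1 array (adjusted p up to 0.15). Pnpla3, also of the ATGL family, had its highest mean with TSC22D4 shRNA alone, 12.148, beside 11.627 for control, 11.715 for LCN13 and 11.963 for combined. Each TSC22D4 array (lowest 12.096) exceeded every control (highest 11.896) and LCN13 array (highest 11.873). No Pnpla3 difference passed in the main fit. Its averaged TSC22D4 effect passed under 2 of 17 alternative settings (limma adjusted p 0.0356 and 0.0486). TSC22D4 against LCN13 passed under 1 of 18 (limma adjusted p = 0.0481).

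Among antilipolytic receptors, Hcar1, the lactate receptor that lowers cyclic AMP in fat cells, had values of 9.18, 8.78 and 8.31 in control and 8.14, 8.30 and 8.17 in LCN13. The LCN13 arrays lay just below all controls, with a difference of -0.55 (SE 0.19, limma adjusted p = 0.244). Control replicates set this value: it was -0.34 without control replicate 1, again the highest array, and -0.77 without control replicate 3 (limma adjusted p = 0.0395). The differences of TSC22D4 and combined from control were -0.49 and -0.36 (limma adjusted p = 0.334 and 0.552), and -0.28 and -0.15 without control replicate 1. Fabp4 and Aqp7, through which fatty acids and glycerol leave the droplet and the cell, passed in no comparison. Hilpda, which like G0s2 inhibits ATGL, was looked at after its values were seen. It was higher than control by 0.28 in TSC22D4, 0.29 in LCN13 and 0.36 in the combined group, and did not pass (limma adjusted p = 0.428, 0.390 and 0.304).

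The other comparisons had no gene of these lists past the threshold in the main fit. In combined against TSC22D4 the largest differences were those of Akap1, which anchors protein kinase A, at 0.31 (limma adjusted p = 0.493) and Pnpla3, a patatin-like relative of ATGL, at -0.18 (adjusted p = 0.847; -0.075 without combined replicate 14). In combined against LCN13 they were those of Ces1d, at -1.27 (adjusted p = 0.257), and Cideb, at -0.75 (adjusted p = 0.555; -0.44 without combined replicate 14). For the LCN13 effect averaged over TSC22D4 they were Cideb, at 0.34 (adjusted p = 0.671), and Hcar1, at -0.21 (adjusted p = 0.537). Without control replicate 1 these were 0.15 and -0.11, and without control replicate 3 they were 0.58 and -0.32. Akap1, at 0.21 in the same comparison, passed under 1 of 17 alternative settings (limma adjusted p = 0.0332, without combined replicate 16). For the interaction the largest differences were those of Hcar1, at 0.68 (adjusted p = 0.618), and the adenylyl cyclase Adcy4, at 0.45 (adjusted p = 0.683), all from limma.

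**Figure D5:**
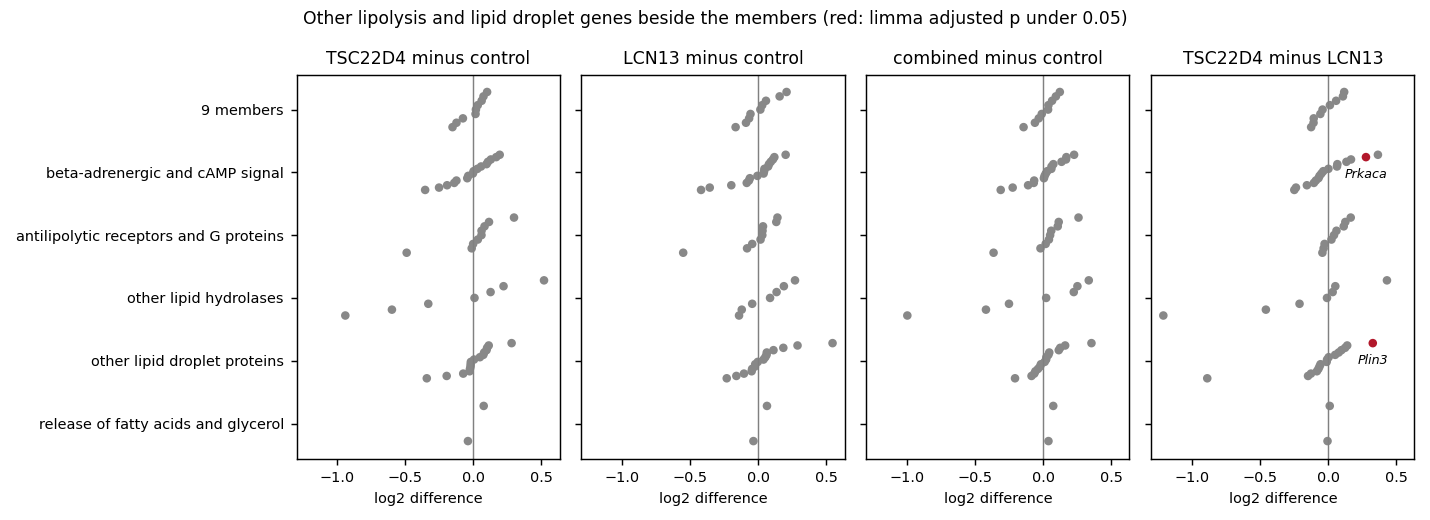
Log2 differences (horizontal axis) of the 9 members and of 50 other genes in 5 lists (rows, 1 point per gene) in 4 comparisons. Red marks a limma adjusted p under 0.05, reached by Prkaca and Plin3 in TSC22D4 against LCN13; the lowest point among the hydrolases is Ces1d in every panel but that of LCN13 against control, and it did not pass.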

How the data were processed

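Abdominal fat RNA of 12 mice was measured on Affymetrix arrays, 3 per group in 4 groups. The authors deposited 1 log2 value per probe set and array, produced by RMA per the submitters' processing notes. Its version and settings, the probe set definitions and the build were not given in the sources used here. Sorted array columns differed by at most 0.00188, so the deposited log2 values share 1 distribution, which removes changes common to most genes. Of 25206 probe sets, 23185 carried 1 gene symbol and were tested. The other 2021 were not matched to 1 gene symbol. Dim probe sets were kept.

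The log2 values were tested with limma 3.58.1 (R 4.3.3), using lmFit, contrasts.fit and eBayes, with 1 mean per group over all 12 arrays, two-sided. Residual and prior degrees of freedom were 8 and 1.38. Adjustment was by Benjamini-Hochberg over all genes within each of 10 comparisons and 1 contrast added after the values were seen. The script was tested on simulated data. Arrays came from separate animals per the labels, and their number limits the precision.

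The members and lists were chosen with earlier results of these data known. All members were named in each comparison. Of the other pathway genes up to 4 that passed were named, or, where none passed, the 2 with the largest log2 difference. Likeness was given for the 3 members with the smallest F test p, leaving out predicted genes, microRNAs and chemosensory receptors. Marker lists covered adipocytes, brown adipocytes, macrophages, endothelium, fibroblasts, mesothelium, liver, pancreas, muscle, red blood cells, T and NK cells, plasma and B cells, and interferon-stimulated genes. Alternatives were all probe sets, a filter at the median level, array weights, eBayes with trend and robust settings, the adipocyte marker mean as covariate, only the arrays compared, and each array left out in turn. Promoter sequences are from RefSeq, GRCm38.p6.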

Additional observations from a re-analysis of the deposited data

How the results depend on the processing

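The 99 results of the members gave 1737 values over 18 alternative settings. Of these, 1660 kept their direction and their side of the threshold, 71 changed sign between values of which neither passed, 6 passed that had not, and none lost a call or reversed one. The 6 were Pnpla2 with the adipocyte marker mean as covariate, in TSC22D4, LCN13 and combined against control, in the F test (F = 17.5, limma adjusted p = 0.0431) and in all shRNA arrays against control, and Plin4 with array weights in LCN13 against control. In each of these, 1 member passed in place of 0. No member passed in any fit that left out 1 array.

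Counts of all genes called depended more on the setting. With array weights they were 447 in TSC22D4 (272 without weights), 680 in LCN13 (333) and 518 in combined (311) against control, 14 in combined against LCN13 (2), 1178 in TSC22D4 against LCN13 (239), 810 for the averaged TSC22D4 effect (323), 614 for the averaged LCN13 effect (251), 935 in the F test (374) and 596 for all shRNA arrays against control (384). With only the arrays compared they were 142, 102 and 126 against control in the same order, 0 in combined against LCN13 and 75 in TSC22D4 against LCN13, where fewer arrays entered each fit. TSC22D4 against LCN13 gave 120 with the adipocyte covariate, and combined against LCN13 gave 7 with the filter at the median level and 8 with trend and robust settings. The causes of these changes in count were not tested. Without 1 array at a time the counts ranged from 153 to 350 in TSC22D4, 205 to 426 in LCN13 and 165 to 376 in combined against control, 0 to 4 in combined against TSC22D4, 0 to 94 in combined against LCN13, 2 to 582 in TSC22D4 against LCN13, 132 to 718 and 135 to 389 for the averaged TSC22D4 and LCN13 effects, 47 to 104 for the interaction, 209 to 531 in the F test and 233 to 420 for all shRNA arrays against control. No paired analysis was made because the labels give no pairing of animals between groups.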
